A study of Homo sapiens with 7 samples.

Results

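PAX3 and FOXO1 are the genes joined by the chromosomal translocation of alveolar rhabdomyosarcoma (aRMS), and FGFR4, ALK, MYCN, TFAP2B, CNR1, OLIG2, PIPOX and NELL1 are genes known as targets of the resulting fusion protein. These 10 genes were taken by name from a table of 57189 genes, and all 10 had a row. RH30 is an established cell line of fusion-positive aRMS, and BV6 is a bivalent Smac mimetic, a compound that binds the cellular inhibitors of apoptosis at the site where the mitochondrial protein Smac docks. RNAseq counts of 7 samples were used, 4 of untreated RH30 cells and 3 of RH30 cells that had received BV6 at 5 µM over 24 h, all labelled as wild type and as 1 cell line. The study's methods state that GFP- and luciferase-expressing RH30 cells were used throughout. The sample titles give BV6 replicates 2, 3 and 4 the same BC label as untreated replicates 2, 3 and 4, while untreated replicate 1 has a label of its own. The titles do not explain the label, and the study calls its RNAseq replicates biological.

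In the fusion protein, the paired domain and homeodomain of PAX3, a developmental transcription factor of muscle progenitors and neural crest, are joined to the transactivation domain of FOXO1, a transcription factor of the insulin and stress response. The fusion protein binds DNA through the PAX3 part and activates genes of growth, signalling and the early muscle lineage. As background, the joint usually lies between exon 7 of PAX3 and exon 2 of FOXO1. In the GENCODE reference transcripts for GRCh38, the introns in which such a joint arises span chr2:222202191-222220139 in PAX3 (17949 bases) and chr13:40560861-40665582 in FOXO1 (104722 bases), and both genes lie on the minus strand. The bases at the joint are shown because they mark where the counts of PAX3 end and those of FOXO1 begin in a fusion transcript. The sequence was built from the reference transcripts and not read from these samples, with the last 30 bases of PAX3 exon 7 in lower case and the first 30 bases of FOXO1 exon 2 in capitals.
PAX3-FOXO1 joint: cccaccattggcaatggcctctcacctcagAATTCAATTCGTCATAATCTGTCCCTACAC
The joint keeps the reading frame, with 391 PAX3 residues before it. Of the 3359 bases of the PAX3 transcript, 1556 (46.3%) lie in exons 1 to 7, and of the 5779 bases of the FOXO1 transcript, 4720 (81.7%) lie in exons 2 and 3. Counts per gene do not separate reads of the fusion transcript from reads of an unrearranged PAX3 or FOXO1 gene.

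**Figure D1:**
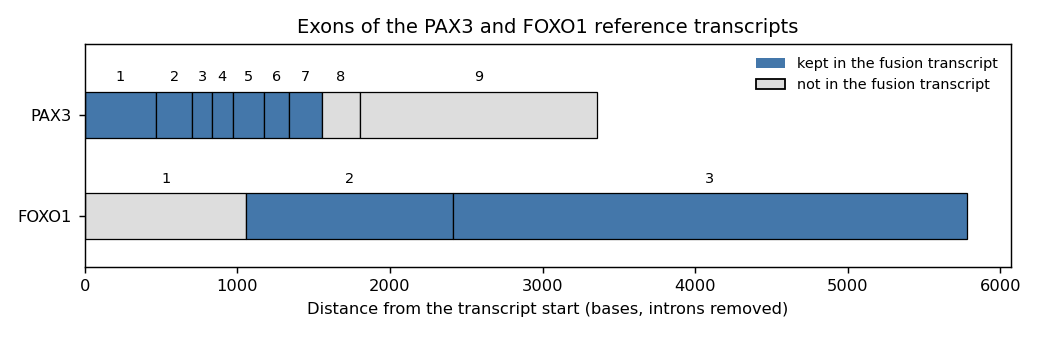
Exons of the reference transcripts of PAX3 and FOXO1 drawn to scale, with the distance from the transcript start in bases on the x axis and exon numbers above the boxes. Blue boxes are the exons that the usual fusion transcript keeps, 1556 bases of PAX3 and 4720 bases of FOXO1, and grey boxes are the exons it leaves out.

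The counts per sample summed to between 54070030 and 77220882. These sums exceed the number of reads per library that the study states. How reads were counted to give such sums is not given in the sources used here. Levels are given as CPM, the counts scaled by the normalised size of each library, and 3 counts, the fewest taken as detected, corresponded to 0.0389 to 0.0557 CPM. Of the 6 rhabdomyosarcoma markers, DES (desmin), MYOD1, NOS1 and MYOG were expressed in untreated cells. Their levels were 768 ± 114, 344 ± 86.9, 159 ± 62.1 and 150 ± 53.8 CPM (SD, n = 4). The other markers were near the floor, with 3 to 15 counts per sample for CDH3 and 1 to 6 for TFAP2B. The summed level of 11 leukocyte markers was 10.4 to 14.5 CPM in untreated and 7.16 to 11.8 CPM in BV6-treated samples, mostly NKG7. Each of the other 10 markers, including PTPRC, PRF1 and CD14, lay at or below 0.801 CPM in each sample. In the comparison with BV6-treated cells described further on, 0 of 7 tested leukocyte and 0 of 4 tested rhabdomyosarcoma markers were called by edgeR. At an unadjusted p below 0.05 there were 0 of either list (edgeR). Of all tested genes, 0.45% were called and 8.39% had an unadjusted p below 0.05 (edgeR).

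To ask how strongly the fusion partners and targets were expressed in untreated RH30 cells, their levels were divided by the length of their annotated exons. FGFR4, a receptor tyrosine kinase for fibroblast growth factors, stood far above the other members with 134 ± 40.1 CPM per kb (SD, n = 4). Its level per kb was higher than that of 98.6% of 17460 tested genes of known length. PIPOX, the peroxisomal sarcosine oxidase, followed at 17.97 ± 1.57 CPM per kb, 7.48-fold lower, and MYCN, the N-MYC transcription factor, at 8.35 ± 2.44 CPM per kb. In each of these steps, the lowest sample of the higher gene lay above the highest sample of the lower gene. FOXO1 had 5.85 ± 0.795 CPM per kb and overlapped with MYCN. PAX3 had 3.03 ± 0.379 CPM per kb, below FOXO1 in all samples, and overlapped with OLIG2 (2.43 ± 0.696 CPM per kb), which in turn overlapped with ALK (2.23 ± 0.626 CPM per kb). CNR1 and NELL1 were low at 0.365 ± 0.257 and 0.135 ± 0.0655 CPM per kb, and their samples overlapped.

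TFAP2B, which encodes the transcription factor AP-2 beta and is a usual marker of fusion-positive tumours, was at the limit of detection. Its counts went against the label of an expressed target in this cell line. It had 4, 1, 6 and 3 counts in untreated replicates 1 to 4 and 4, 4 and 3 counts in BV6 replicates 2 to 4. These counts did not pass the filter on low counts, and no fold change is given.

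**Figure D2:**
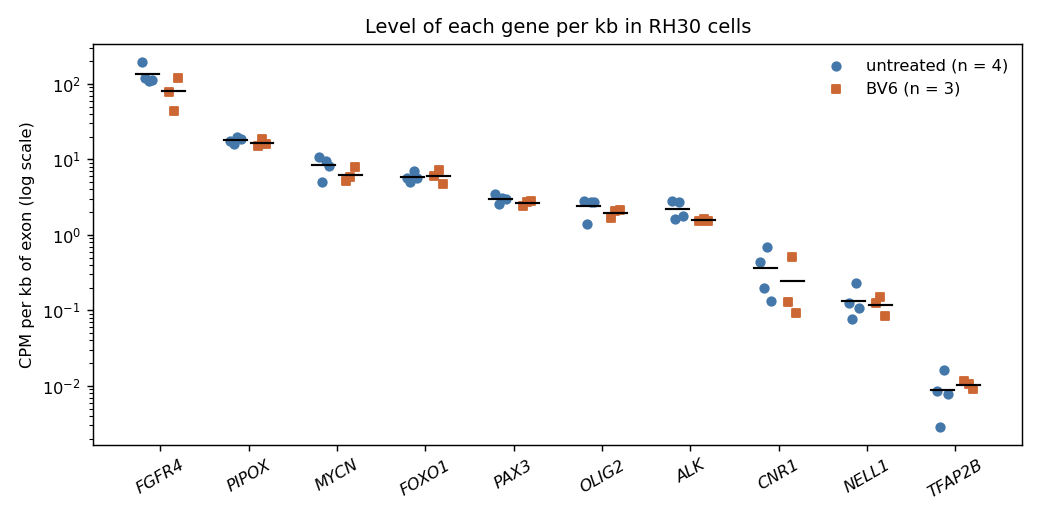
Level of the 10 genes in each sample as CPM per kb of exon on a log axis, with untreated samples as circles, BV6-treated samples as squares and group means as bars. In untreated cells the means run from 134 CPM per kb for FGFR4 to 0.00885 CPM per kb for TFAP2B, and the groups of each gene overlap.

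The order of the fusion partners depended on the length used. In untreated cells, PAX3 had 20.1 to 27.4 CPM and FOXO1 29.9 to 41.3 CPM, and FOXO1 had 1.46 ± 0.168 counts for each count of PAX3 (SD, n = 4). With the union of all annotated exons, FOXO1 lay above PAX3, as given before. With the length of the reference transcript, PAX3 had 7.15 ± 0.896 and FOXO1 6.03 ± 0.82 CPM per kb. With the length of only the bases kept in the fusion, PAX3 had 15.4 ± 1.93 and FOXO1 7.38 ± 1.0034 CPM per kb. The counts were still those of the whole genes, so reads outside these bases are included and raise both values. The choice of these other lengths was made with the data in view.

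Next, edgeR's quasi-likelihood test compared BV6-treated with untreated cells over all 23124 genes that passed a filter on low counts, with Benjamini-Hochberg adjustment, and genes with an adjusted p below 0.05 were called. Among all genes, 104 (0.45%) were called, and with the BC label as a block 218 (0.943%). Of the 10 fusion partners and targets, 9 were tested and 0 were called, without or with the block. By DESeq2, which called 1.61% of all genes with an adjusted p, and by limma-voom, 0 were called as well. At an unadjusted p below 0.05 there were 2 of the 9 with edgeR, FGFR4 and ALK, both lower with BV6, where 8.39% of all tested genes reached this level and 4.26% did so with a lower value, 2 with DESeq2 and 1 with limma-voom. For none of the 9 did the samples of the groups lie apart, a pattern seen in 8.83% of all tested genes. The log2 fold changes were below 0 for 8 of the 9 members, compared with 52.3% of all tested genes. Their median was -0.30 (-0.16 with the block), compared with -0.014 for all tested genes. In cultures sequenced as bulk RNA, fewer cells with a transcript and less of it per cell cannot be told apart.

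PAX3 had 27.4, 20.1, 24.8 and 23.8 CPM in untreated replicates 1 to 4 and 19.3, 21.4 and 22.3 CPM in BV6 replicates 2 to 4. The BV6 samples lay within or just below the untreated range. Its change on the log2 scale was -0.19 (standard error, SE, 0.136, 95% interval -0.50 to 0.11, adjusted p = 0.748, edgeR), and -0.12 with the block. Each BV6 sample was slightly below its untreated partner.
FOXO1 had 34.3, 29.9, 41.3 and 33.9 CPM in untreated replicates 1 to 4 and 36.1, 43.5 and 28.3 CPM in BV6 replicates 2 to 4. The BV6 samples spanned the whole untreated range, and the BV6 sample was above its partner in replicates 2 and 3 and below it in replicate 4. The fitted log2 difference was 0.05 (SE 0.167, 95% interval -0.33 to 0.42, adjusted p = 0.957, edgeR), and it ran from -0.11 to 0.19 when 1 sample was left out. An unnamed lncRNA on the same strand shares 1352 (22.7%) of the exonic bases of FOXO1 in the reference annotation. The identifier of this lncRNA had no row among the counts. BV6-treated samples had 1.72 ± 0.399 FOXO1 counts for each PAX3 count (SD, n = 3), which overlapped with the untreated samples.

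**Figure D3:**
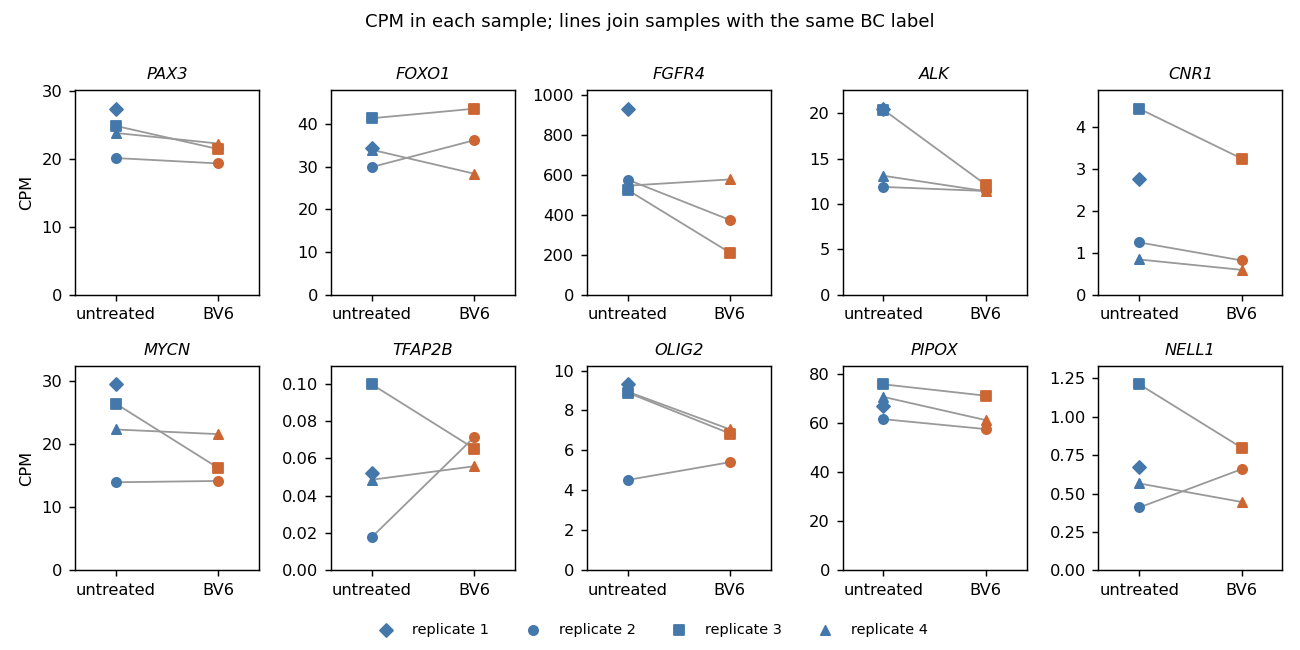
CPM of each gene in each sample, with untreated samples in blue and BV6-treated samples in orange, symbols for replicates 1 to 4 and lines between samples that share a BC label. FGFR4 ranges from 211 to 933 CPM, and the lines of PAX3, ALK, CNR1 and PIPOX all fall from untreated to BV6.

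Among the targets that encode receptors, FGFR4 had the largest difference and also a wide spread. It had 933, 578, 526 and 547 CPM in untreated replicates 1 to 4 and 375, 211 and 579 CPM in BV6 replicates 2 to 4. BV6 replicates 2 and 3 lay below all untreated samples, whereas BV6 replicate 4 lay above 3 of the 4. This gave a log2 fold change of -0.73 (SE 0.319, 95% interval -1.45 to -0.018, unadjusted p = 0.0455, adjusted p = 0.586, edgeR). It was -0.50 without untreated replicate 1, -0.43 without BV6 replicate 3 and -1.15 without BV6 replicate 4. With the block, the log2 fold change of FGFR4 was -0.62 (unadjusted p = 0.0258, adjusted p = 0.344, edgeR).
ALK, a receptor tyrosine kinase of the developing nervous system, had 20.5, 11.9, 20.4 and 13.1 CPM in untreated replicates 1 to 4 and 11.5, 12.1 and 11.4 CPM in BV6 replicates 2 to 4. The BV6 samples were close together around the lowest untreated sample, and untreated replicate 4 was near them. BV6 against untreated gave a log2 difference of -0.50 (SE 0.213, unadjusted p = 0.0423, adjusted p = 0.58) and -0.34 with the block (unadjusted p = 0.0679, adjusted p = 0.484, all edgeR). ALK shares 135 exonic bases with CLIP4 on the opposite strand.
CNR1, the cannabinoid receptor 1, differed more between replicates than between treatments. It had 2.75, 1.25, 4.43 and 0.841 CPM in untreated replicates 1 to 4, a 5.27-fold range, and 0.819, 3.24 and 0.594 CPM in BV6 replicates 2 to 4. The high samples of both groups were those of replicate 3. Within each pair, BV6 samples had 0.657, 0.732 and 0.707 times the level of the untreated sample. The log2 fold change was -0.57 (SE 0.674) without the block and -0.51 (SE 0.196) with it. When 1 sample was left out of the fit without the block, it ran from -1.70 (without BV6 replicate 3) to -0.056 (without untreated replicate 3). With the block, the unadjusted p was 0.0323 and the adjusted p 0.375 (edgeR).

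**Figure D4:**
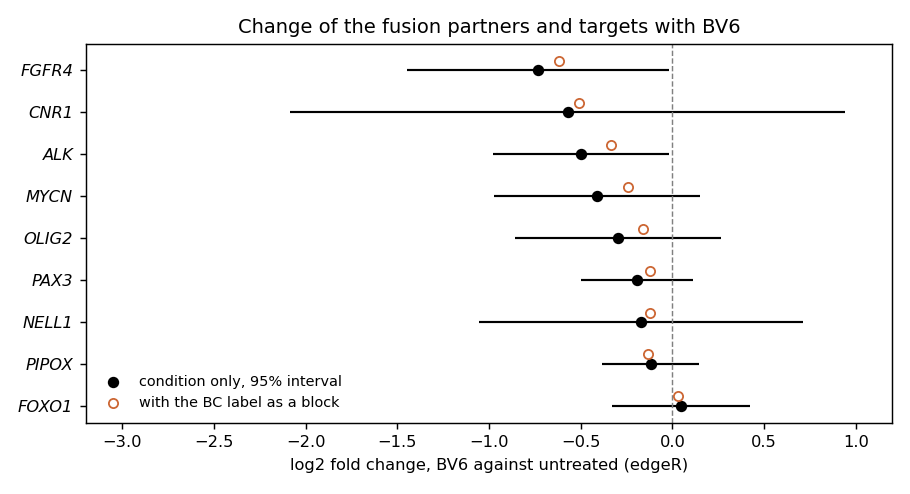
Log2 fold change of the 9 tested genes with BV6, with 95% intervals from the fit of the condition alone as black points and lines, and values with the BC label as a block as open circles. Values run from -0.73 for FGFR4 to 0.05 for FOXO1, and the intervals of FGFR4 and ALK end just below 0, before adjustment for the number of genes tested.

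Among the targets that encode transcription factors, MYCN had 29.4, 13.9, 26.4 and 22.3 CPM in untreated replicates 1 to 4 and 14.2, 16.2 and 21.6 CPM in BV6 replicates 2 to 4. Replicate 2 was low in both groups, and the difference within pairs came mainly from replicate 3. The change was -0.41 on the log2 scale (SE 0.25, adjusted p = 0.716, edgeR) and -0.24 with the block (adjusted p = 0.625, edgeR). MYCN shares 98 exonic bases with its antisense gene MYCNOS, and whether the counting used strand is not given in the sources used here.
OLIG2, a transcription factor of the oligodendrocyte and motor neuron lineage, had 9.31, 4.53, 8.89 and 8.94 CPM in untreated replicates 1 to 4 and 5.41, 6.85 and 7.06 CPM in BV6 replicates 2 to 4. Except for untreated replicate 2, the untreated samples lay above all BV6 samples. On the log2 scale, the difference was -0.30 (SE 0.25, adjusted p = 0.784, edgeR) and -0.16 with the block. It was -0.49 without untreated replicate 2 and -0.18 without BV6 replicate 2.

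PIPOX was the most even of the members, with 61.4 to 75.6 CPM in untreated and 57.4 to 71.0 CPM in BV6-treated cells. The difference was -0.12 on the log2 scale (SE 0.118, 95% interval -0.38 to 0.15, adjusted p = 0.817, edgeR). PIPOX shares 170 exonic bases with PHF12 on the opposite strand. NELL1, a secreted protein of bone development, had 23 to 73 counts in untreated and 24 to 49 counts in BV6-treated cells. Its interval was wide, with a log2 fold change of -0.17 (95% interval -1.05 to 0.71, adjusted p = 0.93, edgeR). A processed pseudogene on the same strand shares 785 (14.8%) of the exonic bases of NELL1 in the reference annotation. The identifier of this pseudogene had no row among the counts. Within pairs, PAX3, ALK, CNR1 and PIPOX, 4 of the 9 tested members, were lower with BV6 in all 3 pairs, which was the case for 17.8% of all tested genes. For 0 of the 9, BV6 was higher in all 3 pairs, compared with 15.5% of all tested genes.

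The same comparison was then read for genes around the fusion. Of 24 further genes known as targets or signature genes of the fusion, 22 were tested and 0 were called, without or with the block. The shares called among all tested genes were 0.45% without and 0.943% with the block. At an unadjusted p below 0.05 there were 7 of the 22, 6 of them lower and 1 higher with BV6. Of all tested genes, 8.39% reached this level in either direction and 4.26% with a lower value (edgeR). By DESeq2, 1 was called, compared with 1.61% of all genes with an adjusted p. The median log2 fold change of the 22 was -0.19 (-0.081 with the block). The most abundant were SKP2, a ubiquitin ligase subunit that targets cell cycle inhibitors, MYOD1, the master regulator of the muscle lineage, and RASSF4, a RAS-association protein. With the SD over 4 untreated and 3 BV6-treated samples, SKP2 had 546 ± 13.6 and 449 ± 79.9 CPM, MYOD1 344 ± 86.9 and 251 ± 89.6 CPM, and RASSF4 302 ± 36.1 and 250 ± 28.8 CPM, with adjusted p of 0.589, 0.693 and 0.61 (edgeR).
BCL2L1, DAPK1 and MET, named after their values were seen, were the 3 of the 22 whose groups did not overlap, compared with 8.83% of all tested genes. BCL2L1, which encodes the anti-apoptotic protein BCL-XL, had 124 to 145 CPM in untreated and 83.5 to 114.6 CPM in BV6-treated samples. It differed by -0.52 on the log2 scale (SE 0.128), and its adjusted p was 0.19 with edgeR, 0.057 with the block and 0.0377 with DESeq2. ABALON, a gene on the opposite strand, covers 41.3% of the exonic bases of BCL2L1. MET, the receptor of hepatocyte growth factor, had 208 to 258 CPM in untreated and 291 to 332 CPM in BV6-treated samples, a log2 fold change of 0.43 (adjusted p = 0.198, edgeR). DAPK1, a death-associated kinase, had 49.8 to 66.0 and 45.8 to 48.5 CPM (log2 fold change -0.33, adjusted p = 0.477, edgeR).

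Of 13 co-regulators and kinases of the fusion protein, all 13 were tested and 0 were called by edgeR. The share called among all tested genes was 0.45%. Log2 fold changes of the 13 lay between -0.32 and 0.09. At an unadjusted p below 0.05 there were 0 of the 13, a level that 8.39% of all tested genes reached (edgeR). CDK4, a cell cycle kinase that phosphorylates the fusion protein, had 4769 ± 436 CPM in the 4 untreated and 4819 ± 838 CPM in the 3 BV6-treated samples (mean ± SD). The chromatin remodelers CHD4 and SMARCA4 had 385 ± 24.1 and 253 ± 48.8 CPM in untreated and 395 ± 45.3 and 212 ± 59.3 CPM in BV6-treated cells.

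Of 11 paralogs of PAX3 and FOXO1, 7 were tested and 0 were called by edgeR, where 0.45% of all tested genes were called. At an unadjusted p below 0.05 there was 1, a level that 8.39% of all tested genes reached (edgeR). This gene was FOXO3, with 75.9 to 92.0 CPM in untreated and 111 to 120 CPM in BV6-treated samples, which did not overlap, as in 8.83% of all tested genes. The log2 difference was 0.43 (SE 0.102, adjusted p = 0.168, and 0.108 with the block, edgeR). FOXO3 has a near-identical copy in the genome, so its counts are uncertain. FOXO4 had 19.8 ± 4.46 and FOXO6 20.1 ± 6.36 CPM (SD, n = 4) in untreated cells. Of the PAX genes, PAX6 and PAX8 had 7.52 ± 1.02 and 4.96 ± 0.527 CPM, while PAX2 and PAX5 lay at or below 1.26 CPM in all samples. PAX7, the other partner of FOXO1 in aRMS and named after its values were seen, had 1 to 11 counts per sample.

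The last list held 16 genes known as targets of unrearranged FOXO factors, of which 15 were tested. Of these 15, GADD45A was up-regulated and called, and 0 were called lower, where 0.45% of all tested genes were called. At an unadjusted p below 0.05 there were 3 of the 15, all higher. Of all tested genes, 8.39% reached this level in either direction, 4.26% with a lower value and the rest with a higher value (edgeR). GADD45A, a stress-response gene of growth arrest and DNA repair, had 118.7 to 133.4 CPM in untreated and 187 to 207 CPM in BV6-treated samples. The groups did not overlap, and GADD45A rose by 0.64 on the log2 scale (SE 0.0953, adjusted p = 0.0249, and 0.018 with the block, edgeR). It lost its call in each of the 7 fits that left out 1 sample, with adjusted p of 0.0512 to 0.113 (edgeR) and log2 fold changes of 0.60 to 0.68. TXNIP and KLF6, the next most abundant genes of the list, had log2 fold changes of -0.16 and 0.32 (adjusted p = 0.89 and 0.618, edgeR), and the median of the 15 was 0.072.

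**Figure D5:**
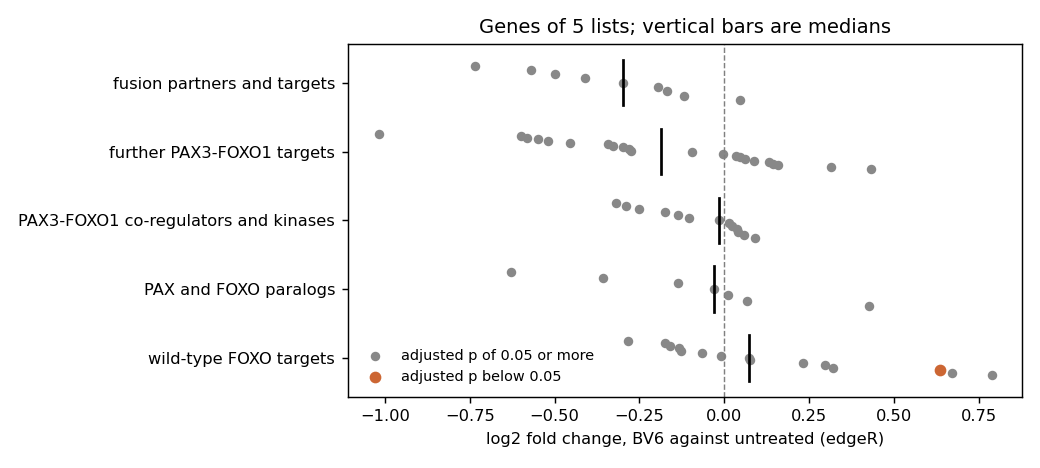
Log2 fold change with BV6 of each tested gene in 5 lists, 1 point for each gene and a vertical bar at the median of the list. Medians are -0.30 for the fusion partners and targets, -0.19 for further targets and 0.072 for targets of unrearranged FOXO factors, where GADD45A is the 1 called gene of the lists shown.

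The genes whose levels ran most alike to PAX3 over the 7 samples were GBF1, LOXL3 and SLC44A2. Their log2 CPM, each centred on its own mean, differed from PAX3 by a root mean square of 0.0421, 0.045 and 0.049, against a median of 0.259 over 12962 genes with at least 5 CPM. For FOXO1 these genes were CCDC174, CEPT1 and LINC02001, at 0.0763, 0.0833 and 0.0836 against a median of 0.268. With 7 samples and so many genes, such closeness is given as a description.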

How the data were processed

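The authors sequenced stranded libraries of poly(A)-selected RNA in paired-end mode, mapped reads to GRCh38 with STAR 2.6.1d (named in the submitters' processing notes) and deposited raw counts per gene from a custom union model of isoforms. The counting program, its use of strand and its treatment of reads on several genes are not given in the sources used here. From the deposited counts, edgeR 4.0.16 (R 4.3.3; filterByExpr with a minimum count of 10, TMM, glmQLFit, glmQLFTest, two-sided) was fitted with the condition only, as the methods state no block. DESeq2 1.42.0, limma-voom (limma 3.58.1) and the BC label as a block were alternatives. Standard errors and 95% intervals derive from the F statistic. Samples sharing a BC label deviated from their group means together across genes (correlations 0.515, 0.322 and 0.197 over the 3 pairs). Samples with different labels had correlations of -0.352 to 0.132 there. Deviations from a group mean cancel out within the group, so positive same-label correlations by themselves push the others down. With untreated replicate 1 in the group mean, the same-label correlations were 0.462, 0.438 and 0.0847. Samples with different labels then had -0.437 to 0.278, so the pair of replicate 4 did not stand out. Of 57189 genes, 36327 were matched by symbol to GENCODE 44 (GRCh38), a later release than the authors' annotation of the same build, used for coordinates, exon lengths and transcript sequences.

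Members and lists were chosen with earlier results of these data known. The lists were written by hand from general knowledge. Named are all 10 members, all rhabdomyosarcoma markers, listed genes that were called and up to 3 of the highest mean CPM in each list. Also named are PAX and FOXO paralogs above 3 counts in all samples. For PAX3 and FOXO1, so are the 3 genes of smallest root mean square difference. Tested on simulated counts of 22643 genes with 200 changed by a log2 fold change of 2, edgeR recovered 196 with 16 false calls, and on 23124 genes DESeq2 recovered 197 with 56 false calls. Floors of counts cover counting error only, since PCR copies cannot be told apart. The intervals of log2 fold changes derive from the F statistic, as given before, and include the spread between replicates.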

Additional observations from a re-analysis of the deposited data

Results flagged for a closer look

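For 2 of the 11 genes checked, 1 of the 4 untreated samples lay far from the others, where chance flags about 1 in 20. FGFR4 stood at 933 CPM in untreated replicate 1, while the other 3 had 526 to 578 CPM, so that the gap made up a share of 0.872 of the range. OLIG2 was low in untreated replicate 2, at 4.53 CPM, while the others had 8.89 to 9.31 CPM (0.913 of the range), and the BV6 sample of the same BC label (5.41 CPM) was also the lowest of its group. The cause was not tested.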

How the results depend on the processing

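The number of fusion partners and targets called was 0 under all 14 alternatives, and the log2 fold changes of the 9 tested members were below 0 in 112 of 126 values and above 0 in 14. These values are repeated fits of the same 9 genes on the same samples and do not count as separate observations. Leaving out 1 sample in turn turned the direction of FOXO1 (-0.11 to 0.19) and of NELL1 (-0.37 to 0.20), gave CNR1 -1.70 to -0.056, OLIG2 -0.49 to -0.18, MYCN -0.60 to -0.27, PAX3 -0.27 to -0.12 and PIPOX -0.21 to -0.044, and moved the median of the members between -0.49 and -0.18. The number of genes called among all tested was 104, and 38 to 89 when a sample was left out. It was 242 without a filter on low counts, 401 with DESeq2, 218 with the replicate block and 341 with the replicate block on the 3 pairs only. BCL2L1 was the 1 called gene of the further targets with DESeq2 and on the 3 pairs with the block (adjusted p = 0.0368, edgeR). The block over all 7 samples changed no other call given for members or lists. The call in the list of targets of unrearranged FOXO factors was lost (0 genes in each fit) when any 1 sample was left out, and GADD45A kept it under the 7 other alternatives. The mean untreated levels of the members moved by less than 1 SD under all 60 alternative values. Most of these values left out 1 untreated sample, which cannot move the mean of so few samples by 1 SD. For them this limit is therefore no test of stability. The remaining values changed only the scaling of the libraries. The level per kb of PAX3 was 7.15 and 15.4 with the other lengths, which were tried with the data in view. TFAP2B, with 1 to 6 counts per sample, was too shallow for a comparison.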
